A study of Homo sapiens with 4 samples.

Results

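SKN, a human leiomyosarcoma cell line, was compared with the other 3 leiomyosarcoma lines of the series, RKN, SKLMS1 and SKUT1, across 13713 of 23577 genes. These are the genes with 1 or more FPKM, a read density corrected for transcript length and library size, in any line; the other 9864 stayed below that level in all 4. Each line was profiled once by stranded poly(A) RNA-seq with single-end reads, untreated, in serum-containing DMEM. With 1 library per line there is no replicate check: every value below describes a library, and differences carry no error and no test. Each line stands for itself alone, and the labels give no tumour site or culture history. Differences are SKN minus the mean of the other lines in log2(FPKM + 1), where 1 unit is 2-fold; the added 1 shrinks the differences of low genes. Levels are FPKM, and those of the comparison lines are given in the order RKN, SKLMS1, SKUT1.

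As background, leiomyosarcoma is a tumour with features of smooth muscle, whose contractile genes are driven by serum response factor (SRF) and its cofactors. Interleukin 1 binds a receptor that acts through MYD88 and IRAK kinases on NF-kB, a family of factors held in the cytosol by inhibitor proteins. NF-kB switches on chemokines and colony stimulating factors and also the genes that restrain it. RAS proteins signal through RAF, MEK and ERK, and active ERK raises its own brakes, the dual-specificity phosphatases, Sprouty and SPRED proteins.

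The FPKM columns summed to 538300 in SKN and to 446954, 494047 and 619584 in the other lines, and 7534 genes were listed at 0 in SKN against 6793 to 7447 elsewhere. The files give no read counts. Low values step in units whose ratio put RKN at an estimated 1.33 times the depth of SKN, SKLMS1 at 1.21 and SKUT1 at 0.964. Of smooth muscle markers, DES stood at 0.347 in SKN (1.102, 0.191 and 0.6597) and MYH11 at 0.216 (0.269, 0.415 and 1.15), both low in all 4 libraries. Other smooth muscle genes, such as TAGLN and MYL9, were not low in every line and are described below.

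Of the 13713 genes, 1367 (9.97%) were higher in SKN by 2-fold than the mean of the other lines and 1482 (10.8%) were lower. A stricter rule asked SKN to lie 2-fold beyond every other line. By it, 514 genes (3.75%) lay above the range of the other lines and 248 (1.81%) lay below it. The median difference over all genes was -0.05 log2 units. Gene lists are read below against these shares. In a bulk library, fewer cells that make a transcript and less of it per cell cannot be told apart.

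**Figure D1:**
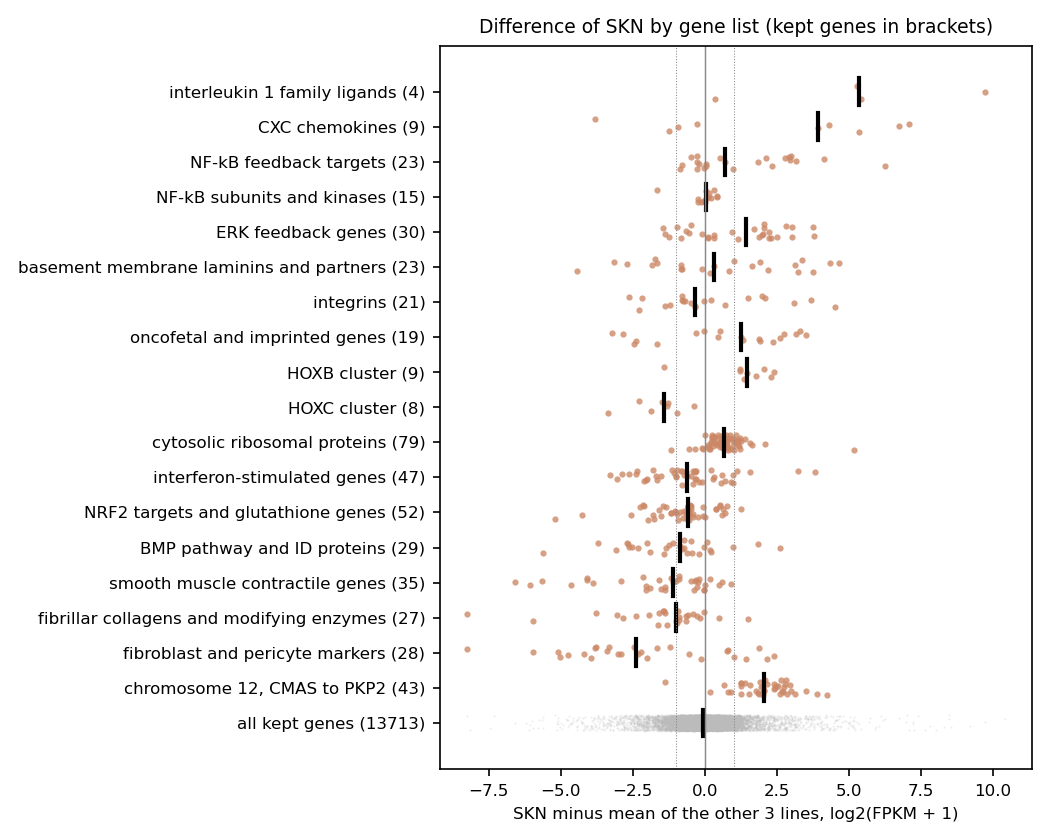
Difference of SKN from the mean of RKN, SKLMS1 and SKUT1 in log2(FPKM + 1) for each kept gene (points) of 17 gene lists, a stretch of chromosome 12 and all kept genes, with list medians as black bars and 2-fold marked by dotted lines. Medians run from 5.36 for the interleukin 1 ligands to -2.39 for fibroblast and pericyte markers, with all genes at -0.05. Among the interleukin 1 ligands, IL1B and IL1A were kept only through SKN.

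The interleukin 1 ligands differed far more than the receptors and adaptors that read them. Of 11 ligand genes 4 were kept, and 3 of them lay above the range: IL1B, IL1A and the alarmin IL33. IL1B and IL1A reached 1 FPKM only in SKN and so were kept through it. The share above the range and the list median thus follow in part from the filter. IL18, the fourth, was 4.37 in SKN against 32.8, 0.734 and 0.264, inside the range. IL1A was 40.05 against 0.0218, 0.0238 and 0.105, a difference of 5.29. Among 21 receptor and adaptor genes, 6 were higher by 2-fold (9.97% of all genes), 1 was lower and 3 lay above the range (3.75% of all genes). Their median difference was 0.10. The receptor IL1R1 was 23.7 in SKN against 18.6, 22.8 and 43.5, and its partner IL1RAP was 4.61 against 0.752, 3.54 and 9.07, both inside the range. IRAK2, a signalling kinase-like adaptor, was 21.8 against 0.671, 2.32 and 1.89. SIGIRR, a receptor that dampens the pathway, was 19.8 against 8.16, 0.0226 and 8.803. The adaptor MYD88 went the other way, at 7.68 against 26.8, 11.9 and 22.1. Of 8 kept genes that process the cytokine, 5 were higher by 2-fold, 1 was lower and 1 lay above the range, with a median of 1.05. CASP1, the caspase that cleaves pro-interleukin 1 beta, was 3.92 against 0.8296, 0.143 and 1.41. PYCARD, the adaptor that links sensors to that caspase, was listed at 0 in SKN against 43.4, 0.344 and 8.99.

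SKN did not stand apart in the NF-kB subunits and kinases. Of 15 kept genes none was higher by 2-fold and 1, TRAF5, was lower, with a median difference of 0.03. RELA was 46.02 in SKN against 34.8, 25.2 and 45.7, and NFKB1 was 19.1 against 15.7, 12.1 and 14.5. The genes that NF-kB induces to limit itself, with other direct targets, were another matter: 10 of 23 were higher by 2-fold, 0 were lower, and 8 lay above the range, with a median of 0.69 that was 1.48 without SKLMS1. NFKBIA, the inhibitor that pulls NF-kB back to the cytosol, was 252 against 48.9, 35.8 and 25.3. TNIP1, a ubiquitin-binding brake, was 289.9 against 17.4, 72.2 and 40.3. ZC3H12A, the RNase that degrades cytokine mRNAs, was 44.2 against 4.39, 7.05 and 3.15, and NFKBIZ was 40.6 against 3.403, 10.5 and 2.07. The adhesion molecule ICAM1 was 56.8 against 2.44, 0.107 and 8.07. SOD2, the mitochondrial superoxide dismutase, was 232 against 64.96, 51.1 and 44.7. In all of these SKN was the highest line, by 1.82 log2 units (SOD2) to 2.67 (ICAM1). TNFAIP3, which encodes the brake A20, was 26.6 against 1.43, 3.35 and 14.3, closest to SKUT1. Not every target followed: TRAF1 was 0.2596 against 1.12, 0.6898 and 2.29, BIRC3 0.997 against 1.25, 0.846 and 0.699, and the pentraxin PTX3 was far higher in SKUT1 (0.0342, 1.76 and 3047) than in SKN (185). TNF itself was listed at 0 in all 4 lines.

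**Figure D2:**
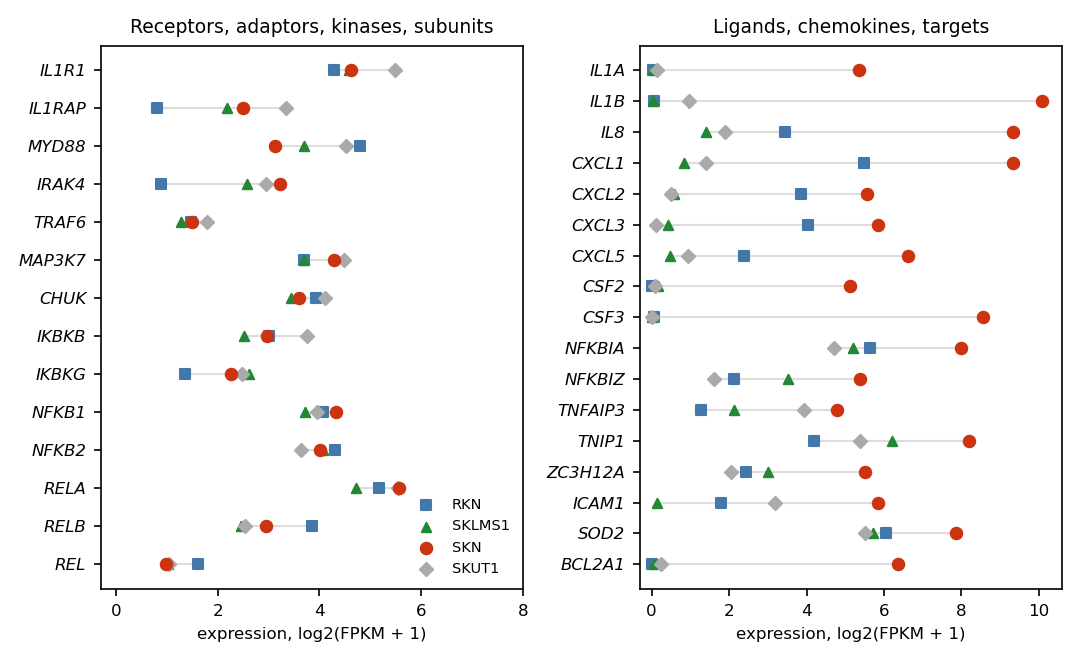
Expression in log2(FPKM + 1) of genes of interleukin 1 and NF-kB signalling in the 4 lines, 1 symbol per library. SKN lies within or close to the other lines for receptors, kinases and subunits (left) and to their right for ligands, chemokines and targets (right).

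The CXC chemokines, whose main group draws neutrophils through CXCR1 and CXCR2, were high as a block of neighbours. Of 17 such genes 9 were kept, 5 of them higher and 2 lower by 2-fold. Those above the range were IL8 and 4 genes that are adjacent among the kept genes of chromosome 4 in the RefSeq order of assembly GRCh38.p14: CXCL1, CXCL5, CXCL3 and CXCL2. CXCL1 was 641 in SKN against 43.8, 0.775 and 1.65. CXCL5 was 96.5 against 4.21, 0.403 and 0.906, CXCL3 was 56.3 against 15.3, 0.343 and 0.0863, and CXCL2 was 46.5 against 13.5, 0.488 and 0.4096. RKN was the next line for all 4, above SKLMS1 and SKUT1. The outermost neighbours did not share this: ANKRD17 before the cluster was 12.1 against 12.2, 6.103 and 16.2, and MTHFD2L after it was 2.17 against 2.297, 0.512 and 1.33. CXCL6, which lies between IL8 and CXCL1, was 0.217 against 0, 0.179 and 1.66. CXCL12, a chemokine of stromal cells, was 0.386 against 0, 32.8 and 214. Both receptor genes, CXCR1 and CXCR2, were listed at 0 in all 4 lines. CXCL1, CXCL2 and CXCL3 are near-identical in part, and how the authors' quantification shared reads between them is not known, so their separate levels are uncertain.

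The promoters of this cluster are shown for a letter-for-letter NF-kB motif. Members that were high in SKN share it with CXCL6, which was not high. RefSeq windows of 250 bases before to 50 after the start, on GRCh38.p14, were searched on both strands for the kappaB 9-mer GGAATTTCC. It was found in 129 of 27305 windows (0.472%) and in 6 of the 8 CXC chemokine windows that the table holds (75.0%), in each of the 6 on the gene's strand. The stretches below run 5′ to 3′ on that strand, with the motif in capitals.
CXCL1: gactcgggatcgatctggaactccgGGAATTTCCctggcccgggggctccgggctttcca
CXCL2: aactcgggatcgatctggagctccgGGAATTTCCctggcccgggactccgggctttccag
CXCL3: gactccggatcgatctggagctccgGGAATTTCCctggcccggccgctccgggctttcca
CXCL5: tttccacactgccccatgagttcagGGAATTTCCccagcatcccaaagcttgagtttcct
CXCL6: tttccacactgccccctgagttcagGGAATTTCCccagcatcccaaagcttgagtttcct
IL8: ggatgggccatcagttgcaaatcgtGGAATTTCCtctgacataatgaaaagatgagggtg
They lie at chr4:73869290-73869349 (plus strand), chr4:74099238-74099297, chr4:74038733-74038792 and chr4:73998733-73998792 (minus strand), chr4:73836564-73836623 and chr4:73740453-73740512 (plus strand). The motif starts 78 bases before the start site in CXCL1 and CXCL3, 77 in CXCL2, 90 in CXCL5, 89 in CXCL6 and 91 in IL8. The 3 neighbours CXCL1, CXCL2 and CXCL3 also resemble each other outside it, as do CXCL5 and CXCL6. The 6 matches are thus not independent of one another. CXCL6 also holds the motif, and it was 0.217 in SKN. Among NF-kB feedback targets with a window, 3 of 21 (14.3%) held the 9-mer: ICAM1, NFKBIA and NFKBIZ. Of 20 ERK feedback genes with a window 1, DUSP6, held it, and of 28 smooth muscle contractile genes 0 did. The share over all kept genes was 0.456%, so 0 of 28 does not set the contractile genes apart. An AP-1 site and a CArG box, a run of A and T between CC and GG, were also searched. The AP-1 site was in 1 of the 8 chemokine windows (12.5%, against 4.57% of kept genes). The CArG box was in 0 of those 8 and in 4 of the 28 contractile windows (14.3%, against 1.13% of kept genes). A match describes letters, not binding.

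Some colony stimulating factor and IL6 family genes were high in SKN, but their list did not move as a whole. Of 18 kept colony stimulating factor and IL6 family genes, 5 were higher by 2-fold, 2 were lower and the median was -0.37. CSF2, the granulocyte-macrophage factor, was 34.03 against 0, 0.112 and 0.0706. It reached 1 FPKM only in SKN and so was kept through it. LIF was 83.8 against 1.46, 18.4 and 2.41. CSF1, the macrophage factor, was below the range, at 2.75 against 16, 63.7 and 23.5. IL6 was 68.9 against 0.0606, 30.5 and 112, higher in SKUT1 than in SKN. The chemokine CCL2, another common NF-kB target, was 0.291 in SKN against 22.9, 0.2401 and 94.4. C3, the central complement protein, was 120.4 against 0.127, 1.21 and 2.36, while C1R (1.26 against 8.78, 13.3 and 179) and C1S (0.172 against 1.59, 5.03 and 287), neighbours on chromosome 12, lay below the range.

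Interferon-stimulated genes leaned low. Of 47 kept, 17 were lower by 2-fold and 4 higher, with a median of -0.62; 6 lay below the range. GBP1, a guanylate-binding GTPase, was 1.91 against 16.2, 14.9 and 11.6. The neighbours APOL2 (4.78 against 22.6, 22.5 and 22.5) and APOL1 (2.01 against 12, 98.6 and 18.97) were both below every other line. The 4 higher genes were the exonuclease ISG20 at 53.9 against 5.41, 1.25 and 2.996, the tetherin gene BST2 at 87.7 against 34.3, 4.03 and 3.85, GBP5 at 1.17 against 0.00792, 0.0174 and 0.0109 and OAS3 at 14.6 against 25.1, 3.004 and 0.356. All but OAS3 lay above the range. SOCS1, which inhibits JAK kinases and is not in that list, was above the range, at 30.5 against 2.88, 3.34 and 0.0809.

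The feedback genes of ERK signalling were high in SKN as a group. Of 30 kept, 16 were higher by 2-fold (9.97% of all genes), 3 were lower, 9 lay above the range and the median was 1.42. SKN was the highest of the 4 lines in 17. DUSP6, a phosphatase that acts on ERK in the cytosol, was 39.8 in SKN against 4.47, 0.298 and 2.56. DUSP4 and DUSP5, nuclear phosphatases, were 23.9 against 0.0766, 1.25 and 10.7 and 35.4 against 11.6, 7.39 and 5.203. The Sprouty gene SPRY2 was 40.95 against 1.31, 2.13 and 28.1, and SPRED1, which restrains RAS, was 23.6 against 3.53, 3.67 and 8.81. All 5 were highest in SKN, and SKUT1 was the nearer line for DUSP4, SPRY2 and SPRED1.

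The ETS factors of the same list were high together. ETV4 was 55.04 against 12.8, 0.947 and 1.67, ETV1 was 9.27 against 0.103, 0.104 and 0.624 and ETV5 was 37.1 against 3.27, 4.06 and 23.2. FOSL1, an AP-1 subunit that ERK stabilises, was 289 against 38.9, 68.6 and 73.2, and EPHA2 was 81.9 against 22.8, 39.6 and 16.4. The immediate early members did not share this. EGR1 was 4.92 against 9.24, 7.08 and 6.91, EGR3 was 0.0213 against 1.06, 0.0876 and 0.8496, and IER3 was 0.0381 against 1.92, 0.0628 and 0. DUSP2 was listed at 0 in SKN against 3.19, 0.0439 and 3.78.

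**Figure D3:**
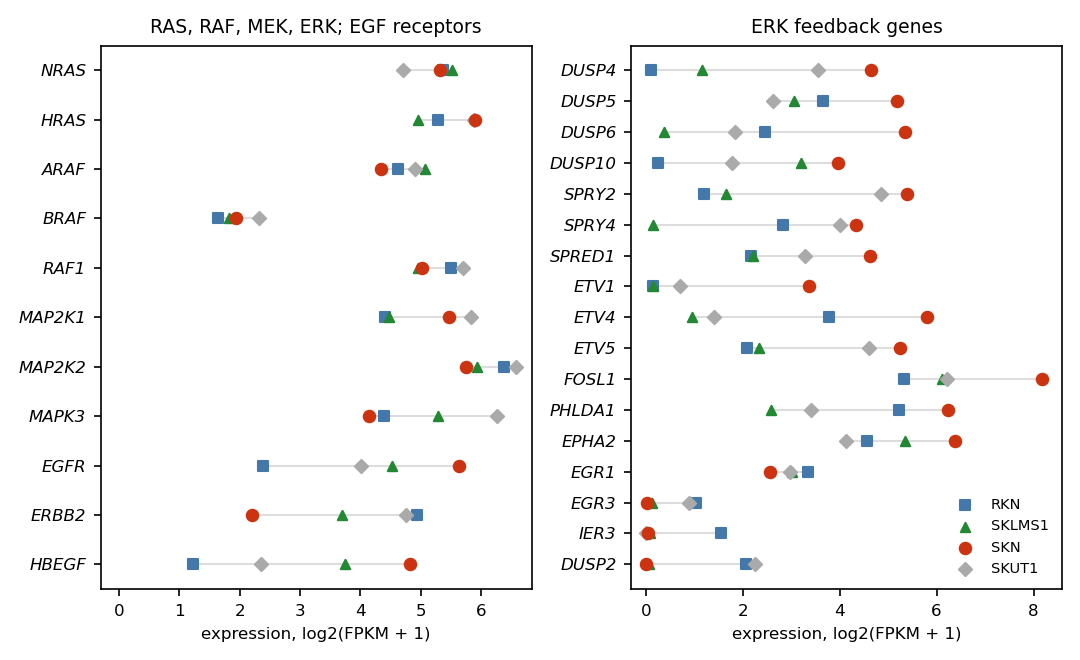
Expression in log2(FPKM + 1) in the 4 lines of RAS, RAF, MEK, ERK and EGF receptor genes (left) and of ERK feedback genes (right), 1 symbol per library. EGFR and HBEGF exceed every other line by more than 1 log2 unit in SKN on the left, and the upper 13 genes on the right are highest in SKN while the lower 4 are not.

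The pathway's own genes were looked up after their values were seen. NRAS was 38.8 in SKN against 40.4, 44.7 and 25.1 and HRAS was 58.9 against 38.1, 29.9 and 58.1, neither set apart from the other lines. Downstream, BRAF was 2.81 against 2.13, 2.52 and 3.99, MAP2K1 (MEK1) was 43.3 against 20.3, 21.1 and 55.7 and MAPK3 (ERK1) was 16.6 against 19.96, 38.1 and 75.7. MAPK3 was thus lowest in SKN. At the receptor level, EGFR was 48.4 against 4.25, 21.9 and 15.1 and its ligand HBEGF was 27.3 against 1.35, 12.4 and 4.12. ERBB2 was below the range, at 3.61 against 29.5, 11.9 and 25.9, with its neighbour MIEN1 at 21.7 against 60.6, 58.4 and 70.3. RNA levels of these genes say nothing of phosphorylation, which was not measured here.

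AP-1 subunits went in both directions: of 23 kept, 5 were higher and 5 lower by 2-fold, with 4 above and 2 below the range. JUN was 129.7 against 35.3, 51.9 and 35.5 and FOS was 10.02 against 2.93, 0.582 and 2.66, both above every other line. JUND was 21.2 against 60.8, 56.1 and 122 and ATF3, a stress-induced member, was 0.206 against 3.81, 3.26 and 5.21, both below.

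A search along the chromosomes found long stretches of genes that were high in SKN together. Kept genes were set in the order of RefSeq GRCh38.p14, which placed 13422 of them (97.9%), and the median difference was taken in every window of 25 neighbouring genes. This search was added after values were seen. The highest window in SKN ran from BCAT1 to CAPRIN2 on chromosome 12, with a median of 2.39 and 22 of 25 genes above the range. The next, from TOMM34 to CD40 on chromosome 20, had a median of 1.40. Taken from CMAS to PKP2, ends that were chosen after the values were seen, the stretch held 43 kept genes, of which 35 (81.4%) lay above the range and 0 below, with a median of 2.07. These shares describe the chosen stretch. SKN was the highest of the 4 lines in 39 of them.

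The level was lower on both sides. Before CMAS, the 140 kept genes of chromosome 12 had a median of 0.16 with 5 (3.57%) above the range. After PKP2, the 541 remaining had a median of -0.10 with 17 (3.14%) above it. At the edges, LDHB, the lactate dehydrogenase subunit B, was 1721 in SKN against 700.5, 875 and 404, just short of 2-fold beyond every other line. AEBP2, further before CMAS, was above the range at 19.1 against 5.88, 5.03 and 4.82. RECQL, a helicase, was 102 against 26.7, 23.4 and 63.1. ALG10, the first gene after the stretch, was 3.76 against 1.95, 1.29 and 0.866, and CPNE8, the third, was listed at 0 against 3.37, 5.23 and 6.54.

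Genes of diverse function were high together here. YARS2, the mitochondrial tyrosyl-tRNA synthetase, was 118 against 19.9, 12.4 and 10.8. DNM1L, the mitochondrial fission GTPase, was 147 against 32.2, 28.9 and 46.96. MRPS35, of the mitochondrial ribosome, was 222 against 46.4, 40.5 and 32.99, and it was the only one of 76 mitochondrial ribosomal protein genes higher by 2-fold. BCAT1, the cytosolic branched-chain aminotransferase, was 126 against 3.14, 22.8 and 42.1. Of clock factors in the stretch, ARNTL2 was 75.7 against 1.15, 9.01 and 5.38 and BHLHE41 was 61.03 against 0, 12.5 and 1.63. PTHLH, parathyroid hormone-like hormone, was 15.7 against 0, 1.25 and 4.496. CMAS, which activates sialic acid, was 148 against 12.5, 24.9 and 37.6, IPO8, a nuclear importer, was 82.8 against 13.5, 8.33 and 14.5, and ERGIC2 was 168 against 32.5, 35.9 and 48.9.

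Of the 43 genes 38 were higher by 2-fold and 1, FGD4, was lower. STK38L was 18.3 against 6.03, 5.91 and 21.9, SSPN was 7.41 against 0.0357, 9.17 and 9.64, TMTC1 was 1.85 against 0.00347, 0.0228 and 4.82 and FGD4 was 0.423 against 0.02196, 1.31 and 20.2, each highest in SKUT1. H3F3C, a histone gene with near-identical copies, was 6.11 against 5.96, 5.301 and 4.46, about level in the 4 lines. ETNK1, DDX11 and DENND5B-AS1 were highest in SKN by less than 2-fold. In the same 43 genes, the median of each other line against its own 3 comparison lines was -1.04 in RKN, -0.76 in SKLMS1 and -0.20 in SKUT1, values that include SKN among the comparison lines. The highest windows of those lines lay elsewhere, on chromosome 19 for RKN (1.18), 8 for SKLMS1 (0.999) and 13 for SKUT1 (1.86). The lowest window of RKN, from CMAS to FAR2 with a median of -1.84, lay inside this stretch, again with SKN among its comparison lines. DNA copy number was not measured in these libraries.

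**Figure D4:**
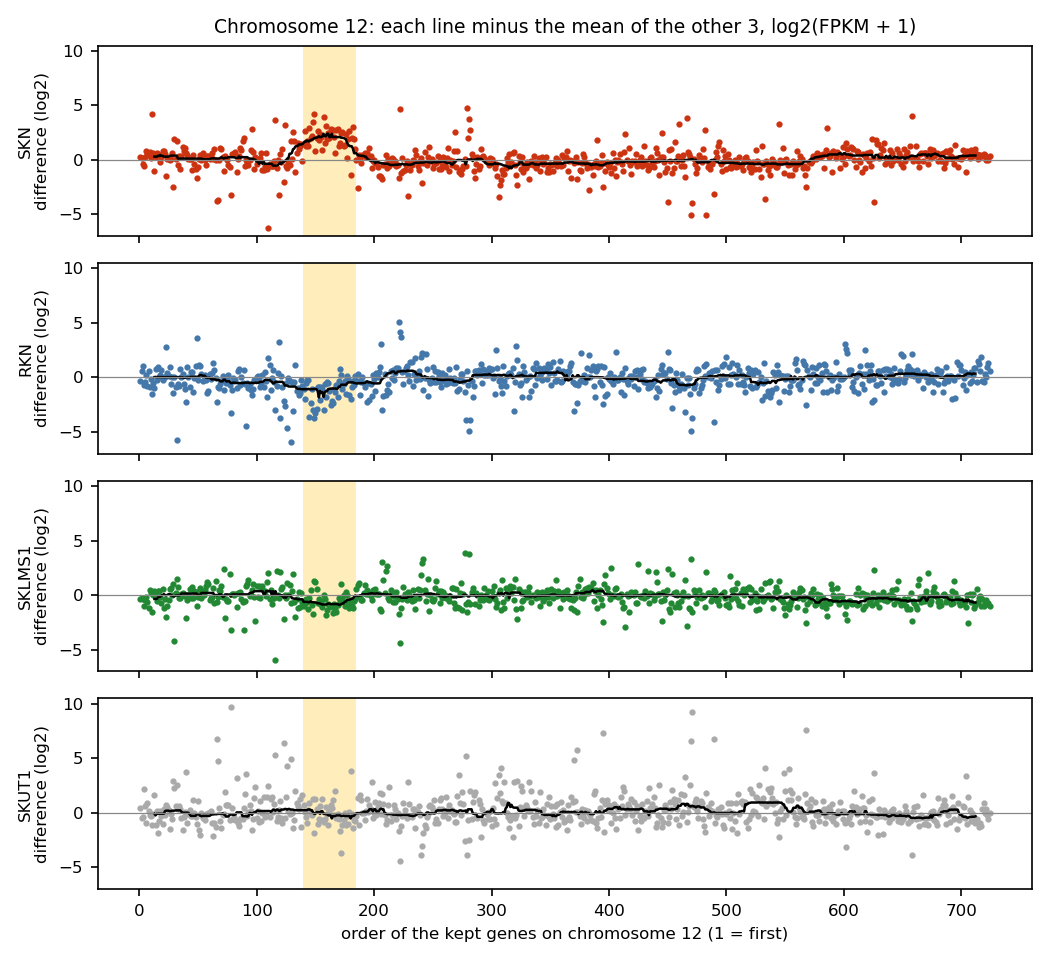
Difference of each line from the mean of the other 3 in log2(FPKM + 1) for the kept genes of chromosome 12 in RefSeq order, with a running median over 25 genes (black line) and the stretch from CMAS to PKP2 shaded. The SKN median rises above 2 inside the stretch and returns to near 0 outside it.

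The second window, on chromosome 20, holds members of the TNF receptor and protease inhibitor lists beside broadly expressed genes. Of its 25 genes 10 lay above the range. CD40, a TNF receptor family member, was 127 against 7.76, 22.6 and 0.515. SLPI, a secreted protease inhibitor, was 64.99 in SKN and listed at 0 in the other 3 lines, and its neighbour PI3, the elafin gene, was 12.8 against 0, 0.0934 and 0. Between them and CD40, broadly expressed genes were raised less: DNTTIP1 was 124 against 43.7, 47.5 and 22.1, ACOT8 was 39.9 against 11.2, 18.03 and 15.1, and PIGT was 171 against 35.96, 86.7 and 116. PLTP, the phospholipid transfer protein, was 90.6 against 27.1, 3.65 and 10.5. The third window, from ALDH6A1 to GPATCH2L on chromosome 14 (median 1.28, 11 above the range), includes FOS and PGF, placental growth factor, which was 37.4 against 3.73, 0.178 and 4.14.

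Low stretches were shallower. The lowest window, TRAF5 to KCTD3 on chromosome 1, had a median of -1.10 with 4 of 25 genes below the range. Runs of neighbours below the range were all pairs, 14 of them, while 49 runs of 2 to 10 genes lay above it. Fewer genes lay below the range to begin with, 1.81% of all genes against 3.75% above it. The longest runs above it, of 5 and 10 genes, all lay in the chromosome 12 stretch. The deepest pair was LRRC41 and UQCRH on chromosome 1. LRRC41 was 0.0861 in SKN against 17.6, 58.8 and 50.3, and UQCRH, the hinge subunit of respiratory complex III, was 0.493 against 372, 299 and 161. The genes on either side were present in SKN: RAD54L was 8.42 against 20.9, 11.7 and 2.79 and NSUN4 was 7.42 against 6.93, 4.41 and 4.69. UQCRHL, a near-identical copy elsewhere on chromosome 1, was 0.119 against 244, 231 and 101, and its neighbours FBLIM1 (40.9) and SPEN (7.08) were not low. Reads of UQCRH and UQCRHL can be split or shared between the copies, so their separate levels are uncertain. The other 12 kept genes of complex III were within 2-fold, among them UQCRFS1 at 41.1 against 95.5, 83.9 and 57.8.

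Smooth muscle contractile genes were low in SKN. Of 35 kept, 0 were higher and 19 were lower by 2-fold (10.8% of all genes), 6 lay below the range (1.81% of all genes), and the median was -1.11. TAGLN, the actin-binding transgelin, was 5.82 in SKN against 45.5, 531 and 3816, and CNN1, calponin, was 0.228 against 2.45, 29.6 and 86.4. MYL9, the regulatory light chain, was 39.4 against 191, 1155 and 1474. The tropomyosins were not below RKN: TPM1 was 138 against 70.95, 1177 and 2205 and TPM2 was 394 against 373, 1065 and 1549. SMTN, smoothelin, was highest in SKN by a small margin, at 45.6 against 32.9, 22.9 and 44.1, and CNN3, a calponin not restricted to muscle, was 170.5 against 159.6, 242 and 205. SKUT1 carries much of this difference: without it the median was -0.46, without RKN it was -1.70, and by root mean square distance RKN was the nearest line to SKN over the list.

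The regulators of these genes leaned low. Of 29 kept genes for SRF, its cofactors and LIM proteins, 8 were lower and 1 was higher by 2-fold, with 2 below the range and a median of -0.57. SRF was 9.999 against 17.9, 20.6 and 20.1, lowest in SKN by 0.78 log2 units. Its coactivator MKL1 was 4.82 against 7.603, 13.96 and 11.7, and MYOCD, the muscle-specific coactivator, was 0.00596 against 0.00897, 0.0303 and 5.16, above 1 FPKM only in SKUT1. The LIM proteins CSRP2 and CRIP1 were below the range, at 5.21 against 155, 158 and 27.3 and 1.02 against 44.8, 13.9 and 165. ELK3, an ETS partner of SRF, was the higher one, at 33.5 against 9.18, 13.7 and 20.2.

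**Figure D5:**
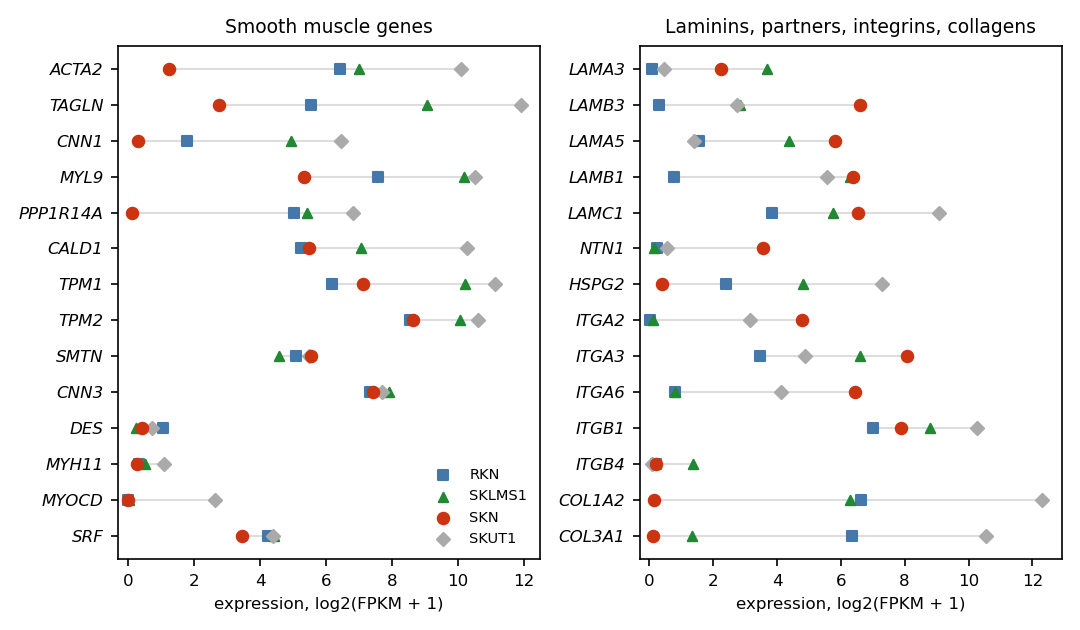
Expression in log2(FPKM + 1) in the 4 lines of smooth muscle genes (left) and of laminin, integrin and collagen genes (right), 1 symbol per library. SKN is lowest for ACTA2, TAGLN, CNN1, MYL9, PPP1R14A and SRF, and highest for LAMB3, LAMA5, NTN1, ITGA2, ITGA3 and ITGA6.

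Matrix genes divided by kind. Of 27 kept fibrillar collagen and collagen-modifying genes, 14 were lower by 2-fold and 1 higher, with a median of -1.01. COL3A1 was 0.0893 in SKN against 80.6, 1.53 and 1498. COL5A1 was 36.3 against 8.04, 202 and 566, inside the range. PLOD2, the lysyl hydroxylase, was the exception, at 65.4 against 0.346, 58.2 and 157, though without RKN its difference was -0.54. Without SKUT1, the line with the most collagen RNA, the list median was -0.31, and without RKN it was -2.02. Of 31 proteoglycan and hyaluronan genes 17 were lower by 2-fold, with 4 higher, but only 1 lay below the range. That list summed to 826 in SKN against 223, 830 and 5044, so SKUT1 was again the high line.

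Laminins and their partners went the other way in part: of 23 kept, 10 were higher and 6 lower by 2-fold, with 4 above and 1 below the range. LAMB3, the beta chain of laminin 332, was 97.04 against 0.224, 6.11 and 5.74. LAMA3, which encodes the alpha chain of that trimer, was 3.701 against 0.0508, 11.9 and 0.382, higher in SKLMS1. LAMA5 was 55.2 against 1.92, 19.6 and 1.63, and the netrin NTN1 was 10.8 against 0.191, 0.107 and 0.454. HSPG2, perlecan, was below the range at 0.304 against 4.32, 27.1 and 156. Integrins went in both directions: of 21 kept, 6 were higher and 5 lower by 2-fold, with 5 above and 0 below the range and a median of -0.34. Of alpha chains that bind laminin or collagen, 3 were above the range: ITGA6 was 85.99 against 0.758, 0.746 and 16.5, ITGA3 was 271 against 10.2, 95.8 and 28.6 and ITGA2 was 26.3 against 0.0197, 0.0774 and 7.88. Others of that kind were lower by 2-fold: ITGA7, a laminin receptor of muscle, was 0.103 against 7.21, 0.1596 and 15.7, and ITGA11, a collagen receptor, was 0.655 against 0.0432, 2.72 and 278. Their partner ITGB1 was 237 against 129, 442 and 1240, within the range, and ITGB4, which pairs with ITGA6 in epithelia, was 0.158 against 0.162, 1.57 and 0.0521. Of 13 kept matrix metalloproteinases 3 lay above the range, while MMP2 was 5.12 against 0.924, 30.9 and 616. Of 7 metalloproteinase inhibitor genes 5 were lower by 2-fold and 0 higher, but only 1, TIMP3, lay below the range. TIMP3 was 0.0373 against 2.08, 18.6 and 2838. The inhibitor list summed to 441 in SKN against 260, 446 and 13830, so SKUT1 was the high line.

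Targets of bone morphogenetic protein (BMP) signalling were low together. Of 29 kept BMP pathway genes 14 were lower and 2 higher by 2-fold, with 5 below the range and a median of -0.86. The ID genes, whose products block basic helix-loop-helix factors and which BMP-activated SMADs induce, were all lowest in SKN. ID1 was 70.8 against 445, 593 and 167, ID3 was 25.2 against 738, 156 and 334 and ID4 was listed at 0 against 17.9, 0.177 and 10.1. SMAD6, the inhibitory SMAD, was 0.883 against 4.94, 6.46 and 39.2. The transducers were within 2-fold of the mean: SMAD1 was 6.36 against 8.19, 9.96 and 5.09, SMAD5 was 14.8 against 10.1, 15.4 and 12.8 and the receptor BMPR1A was 4.51 against 7.78, 4.698 and 8.13. CHRDL1, a secreted BMP antagonist, was above the range at 18.2 against 0.0324, 5.27 and 3.71, while GREM1 was 139.9 against 0.00795, 24.6 and 2390, a difference whose sign rests on RKN (-0.81 without it).

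HOX clusters, whose genes mark position along the body axis, differed in direction. In HOXB 8 of 9 kept genes were higher by 2-fold and 1 was lower (median 1.47), but only HOXB2 lay above the range, at 25.3 against 8.26, 9.97 and 9.86. RKN shared the pattern: HOXB6 was 15.9 in SKN against 12.9, 1.699 and 0.0556. In HOXC 6 of 8 were lower and 0 higher (median -1.40), with HOXC10 at 0.606 against 6.98, 9.03 and 55.9 and HOXC9 at 0.973 against 5.21, 7.29 and 15.8. HOXD10 and HOXD11 were above the range, at 4.73 against 0.2595, 0 and 0 and 3.66 against 1.202, 0 and 0. PAX8, a factor of the kidney, thyroid and Mullerian tract, was 195 against 1.08, 48.1 and 2.15, while its list of 25 Mullerian tract and related genes had 7 higher and 6 lower by 2-fold. Of 19 oncofetal and imprinted genes 10 were higher and 5 lower by 2-fold, with a median of 1.24. The chromatin protein gene HMGA1 was 653 against 29.9, 46.9 and 190.2, IGF2 was 21.1 against 1.66, 6.93 and 1.21 and the growth inhibitor CDKN1C was 24.3 against 2.33, 4.6 and 0.184, while IGF2BP1 was listed at 0 against 5.77, 7.42 and 1.97 and H19 was 0.1498 against 0.0282, 0.0154 and 207, a difference of -2.38 that was 0.17 without SKUT1.

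Markers of other cell types were mixed, and no full set was present. Of 20 kept endothelial genes 10 were higher by 2-fold (9.97% of all genes) and 6 lay above the range (3.75% of all genes). Among these 6 were the receptors TIE1 and KDR (4.91 against 0, 0 and 0.00698). TIE1 and KDR reached 1 FPKM only in SKN and were kept through it, so these shares follow in part from the filter. The defining endothelial genes were near 0 in SKN: PECAM1 was 0.0463, CDH5 0.0702 and VWF 0.00456. The summed level of the endothelial list was 172 in SKN against 11.6 to 148 elsewhere. Of 10 kept leukocyte genes 5 were higher by 2-fold, led by LAPTM5 at 37.3 against 0.117, 2.98 and 1.14, HCLS1 at 13.8 against 0.0162, 0.0177 and 2.64 and the GTPase RAC2 at 214 against 35.2, 33.8 and 34.9. PTPRC, which encodes the pan-leukocyte antigen CD45, was listed at 0 in SKN, as were LYZ and ITGAM. The leukocyte list summed to 291 in SKN against 55.6 to 120 elsewhere. What part other cell types or a changed state play in these levels was not tested.

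Among 21 epithelial genes 6 were higher and 6 lower by 2-fold. KRT8 and KRT18, the paired simple keratins, were 265 against 1.99, 268 and 9.42 and 283 against 7.84, 42.8 and 184. CLDN1, a tight junction claudin, was 109 against 1.47, 13.9 and 0.189. MUC1 was below the range, at 0.186 against 7.12, 10.5 and 6.42, and CDH1, E-cadherin, was 0.0683 against 0.04497, 0.936 and 1.195. The epithelial list summed to 846 in SKN against 105 to 937. Fibroblast and pericyte markers had the lowest median of the lists described here, -2.39, with 19 of 28 lower by 2-fold and 5 higher. THY1 was 0.01796 against 44.05, 0.222 and 381 and PDGFRB was 0.00714 against 1.597, 33.7 and 70.7, but VIM, the mesenchymal filament gene, was highest in SKN at 5162 against 2554, 3053 and 3472.

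Broadly expressed machinery was mostly level. Of 50 DNA replication genes 0 were higher or lower by 2-fold. Of 47 mitotic genes 10 were higher, 0 were lower and 0 lay above the range; SKUT1 was the low line, with a summed mitotic level of 815 against 3469 in SKN, 3456 in RKN and 3491 in SKLMS1. Ribosomal protein genes were raised slightly but widely: 62 of 79 were highest in SKN, 18 were higher by 2-fold, and the median was 0.66. They made up 19.2% of the FPKM sum in SKN against 13.7%, 13.7% and 8.17%. RPL5 was 2056 against 726, 832 and 488 and RPS21 was 5625 against 1456, 2117 and 731. Ribosomal protein genes have many near-identical pseudogenes, so single values are uncertain.

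Glutathione and NRF2 target genes leaned low, with 17 of 52 lower by 2-fold, 1 higher and a median of -0.59. PRDX2, a peroxiredoxin, was 1.72 against 290.4, 24 and 134, and GPX7 was listed at 0 against 13.3, 9.86 and 45.1. The glutathione transferase GSTM3 was 4.999 against 18.6, 26.6 and 15.2. GPX1 was the higher one, at 408 against 224, 165 and 136. In kynurenine and NAD metabolism, KYNU, kynureninase, was 27.8 against 0, 1.41 and 0.475, and NMNAT2 was 25.5 against 0.0791, 0.105 and 6.998.

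Over all kept genes SKN was nearest to SKLMS1, with a root mean square difference of 1.23 log2 units against 1.36 from RKN and 1.57 from SKUT1. The nearest line changed with the genes: RKN was nearest for the CXC chemokines, the contractile genes, the fibrillar collagens and HOXB, and SKUT1 for the ERK feedback genes and NF-kB targets.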

How the data were processed

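Gene-level values of 4 leiomyosarcoma cell lines (SKN, RKN, SKLMS1, SKUT1; 1 library each) were used. The deposited values are FPKM, made by the authors with STAR and Cufflinks on hg19, per the submitters' processing notes; no source here gives versions, scaling options or strand settings. Median-of-ratios factors computed from the FPKM were 1.005 to 1.024, so the columns were used as deposited. Of 23610 rows, 28 with a date in place of a symbol and 5 with unreadable values were left out. Genes with FPKM of 1 or more in any line were kept, and differences were taken on log2(FPKM + 1), with a pseudocount of 1. A gene was called at 2-fold. The scripts (Python 3.11.15, pandas 2.3.3) were tested on simulated data.

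The members and gene lists were chosen with earlier results of these data known. The genes named are the most different members of each list, the most extreme genes, runs of neighbours, and members chosen after their values were seen. The alternatives tried were other pseudocounts, scalings, filters, thresholds and centres, and leaving out each comparison line. Gene order and promoters came from RefSeq (GRCh38.p14), with a promoter window for 10734 kept genes. No count model was used, since FPKM are not counts. Some genes are not reported here.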

Additional observations from a re-analysis of the deposited data

How the results depend on the processing

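Rescaling to TPM and quantile or median-of-ratios normalization kept every gene count within 1.5 times. Every list median reported stayed within 1.5-fold, with the exception of the interleukin 1 ligands under TPM (6.09). Dropping the filter is no check. Genes below FPKM 1 in every line cannot differ by 2-fold after the added 1, and list medians were taken over kept genes only. The pseudocount moved more. At 0.1, genes lower by 2-fold numbered 2339 and genes below the range 553, and the medians were 1.39 for NF-kB targets, 4.87 for CXC chemokines and 2.74 for the chromosome 12 stretch. At 5, the counts were 678 higher, 684 lower, 305 above and 102 below the range, and the CXC median was 2.65. With a minimum of FPKM 5 the medians were 1.84 (NF-kB targets), 4.83 (CXC) and 2.01 (ERK feedback); without genes listed at 0 the CXC median was again 4.83. Against the median of the other lines, NF-kB targets stood at 1.48 and CXC at 4.99. At 4-fold, the counts were 441, 423, 184 and 80.

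Leaving out 1 comparison line at a time gave 1402 to 1595 genes higher and 1403 to 1869 lower, 759 to 886 above and 499 to 708 below the range. The range rules ask for fewer lines to be exceeded then. The medians spanned 3.35 to 5.03 for CXC chemokines, 0.48 to 1.48 for NF-kB targets, 0.87 to 1.63 for ERK feedback genes, -1.70 to -0.46 for contractile genes, -2.02 to -0.31 for fibrillar collagens and 2.00 to 2.26 for the chromosome 12 stretch. The low values of the contractile and collagen lists came without RKN and the high values without SKUT1.

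GREM1 (-0.81 to 4.79) and PLOD2 (-0.54 to 2.89) changed sign without RKN. H19 (-3.67 to 0.17) did so without SKUT1 and also against the median of the other lines (0.16). No paired analysis was possible because each line has 1 library. With no counts in the files, the read depth and the counting error behind a low value are not known.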

Other observations

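Grouping genes by the letters of their symbols, with no hand-written list, the families with the highest median in SKN after HOXB included the small nucleolar RNA host genes (SNHG; 13 kept, 7 higher and 1 lower by 2-fold, median 1.06) and the semaphorins (SEMA; 14 kept, 6 higher and 2 lower, median 0.84). SNHG7 was 182 in SKN against 38.2, 23 and 14.4, and SNHG5 was 607 against 205, 48.4 and 215, while SNHG9 was 22.2 against 309.5, 128 and 104. Among the semaphorins, which guide axons and vessels, SEMA3F was 48.8 against 3.89, 2.65 and 14.4 and SEMA3A was 6.64 against 0.0217, 1.22 and 1.1, whereas SEMA3B was below the range at 0.333 against 2.46, 3.79 and 4.13. At the other end, the clustered protocadherins were low: 5 of 10 PCDHB genes and 4 of 9 PCDHGA genes were lower by 2-fold and 0 were higher, with medians of -0.89 and -0.92. PCDHB2 was 0.328 against 4.87, 6.35 and 2.35. Families were picked by their medians, so these are descriptions only.

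The plasminogen and coagulation list had 7 of 21 genes higher by 2-fold and 5 lower. PLAU, urokinase, was 192 against 63.6, 46.02 and 63.5, and its receptor PLAUR was 77.05 against 23.9, 3.25 and 72.8, level with SKUT1. F2RL1, a protease-activated receptor, was 9.91 against 0.0221, 0.0485 and 0.213. THBD, thrombomodulin, was listed at 0 in SKN against 0.209, 9.97 and 9.75. Of 28 glycolysis genes 5 were higher by 2-fold and 0 lower, with ENO3, a muscle enolase, at 22.1 against 1.44, 2.01 and 0.603 and the lactate exporter SLC16A3 at 255 against 5.49, 153 and 151.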
